A study of Mus musculus with 9 samples.

Results

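Expression of 54 genes of the complement and coagulation systems was examined in mouse liver. These genes were taken by symbol from a fixed list, and all 54 were present among the 16755 genes of the table analysed. They encode components, regulators and receptors of complement, clotting factors, fibrinogen chains, and proteins of fibrinolysis and of the natural anticoagulant pathways. RNA was from male mice in 3 groups of 3, labelled C57BL/6 and given as C57BL/6J in the study's methods. Scd2f/f control mice carried floxed alleles of Scd2, a stearoyl-CoA desaturase, without Cre and were untreated. Scd2f/f mice with tumor-adjacent liver (TAL) carried the same floxed alleles without Cre and had received diethylnitrosamine (DEN), a liver carcinogen, when 2 weeks old (10 mg/kg), followed by Western alcohol diet (WAD) from an age of 6 weeks for 4 months, by the labels. Scd2f/f;CC mice received the same regimen and carried Col1a1-Cre in addition. The study's methods give a longer WAD feeding than the labels. The Col1a1 promoter is active in hepatic stellate cells (HSC) and portal fibroblasts, so Scd2 was not deleted in hepatocytes or macrophages by design, and whole TAL still held Scd2 from other cells. The labels call every tissue liver. The treatment protocol of the control samples also describes DEN and WAD, whereas their treatment label reads untreated, and the latter was used for grouping. No group without Cre differed from another in genotype, and untreated mice with Col1a1-Cre were not analysed here, so an effect of the Cre transgene alone cannot be told apart from that of Scd2 loss.

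Complement is a cascade of plasma proteases that tags and lyses targets. The classical pathway starts when C1q binds antibody or other ligands, the lectin pathway when mannose-binding lectins or ficolins bind sugars, and the alternative pathway amplifies C3 cleavage through factor B, factor D and properdin. Coagulation converts prothrombin to thrombin and fibrinogen to fibrin, and plasmin dissolves the clot. Hepatocytes secrete most of these plasma proteins, whereas C1q, properdin and the anaphylatoxin receptors are mostly made by macrophages and other myeloid cells.

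Each value below is the mean of a group of 3 mice, in reads per gene after the authors' upper quartile normalization. Single mice have no value in the data used here. No standard deviation, interval or test across mice can therefore be given, depth is unknown, and ratios of group means are described without a statement on significance. A gene was counted as higher or lower at a ratio of at least 2-fold, and 51 of the 54 members passed a filter of at least 1 on the mean over the 3 groups. C5ar1, F13a1 and F2rl1 did not pass. In whole liver, fewer cells of a type and less RNA per cell cannot be told apart. Scd2 had means of 2.46 for Scd2f/f control liver, 6.47 for Scd2f/f TAL and 1.87 for Scd2f/f;CC TAL, so it was 3.46-fold lower in the latter than in Scd2f/f TAL. The 11 hepatocyte markers measured had means of at least 140 in every group. The comparisons are not independent, because Scd2f/f TAL enters those with control and with Scd2f/f;CC TAL, and the control group enters those with both kinds of TAL.

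In Scd2f/f TAL vs. control liver, 6 of the 51 members were at least 2-fold higher and 0 were at least 2-fold lower. The 6 were the C1q chain genes C1qa, C1qb and C1qc, the properdin gene Cfp, the factor D gene Cfd and the C3a receptor gene C3ar1. Cfd passed the filter only through the treated groups, which favoured its ratios above 1 in the comparisons with control. Among all 11784 genes past the filter, 6.4% were at least 2-fold higher and 2.89% at least 2-fold lower. The median log2 ratio of the members was 0.14, beside 0.028 for all genes. In Scd2f/f;CC TAL vs. Scd2f/f TAL, 0 of 51 members were at least 2-fold higher and 0 were at least 2-fold lower, beside 0.645% and 1.54% of all genes. The median log2 ratio was 0.071 for the members and 0.006 for all genes. Other scalings shift all genes alike. The member median was -0.04, beside -0.105 for all genes, when groups were scaled to the total of their protein-coding genes, and -0.087, beside -0.152, when they were centred on 11 hepatocyte markers. The members thus kept a median 0.065 above that of all genes, while its sign followed the scaling. In Scd2f/f;CC TAL vs. control liver, 6 of 51 members were at least 2-fold higher, namely C1qa, C1qb, C1qc, Cfp, Cfd and C3ar1, and 0 were at least 2-fold lower, beside 4.51% and 2.55% of all genes. All 54 members together made up 3.69% of the summed means of protein-coding genes for control liver, 4.54% for Scd2f/f TAL and 4.31% for Scd2f/f;CC TAL.

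**Figure D1:**
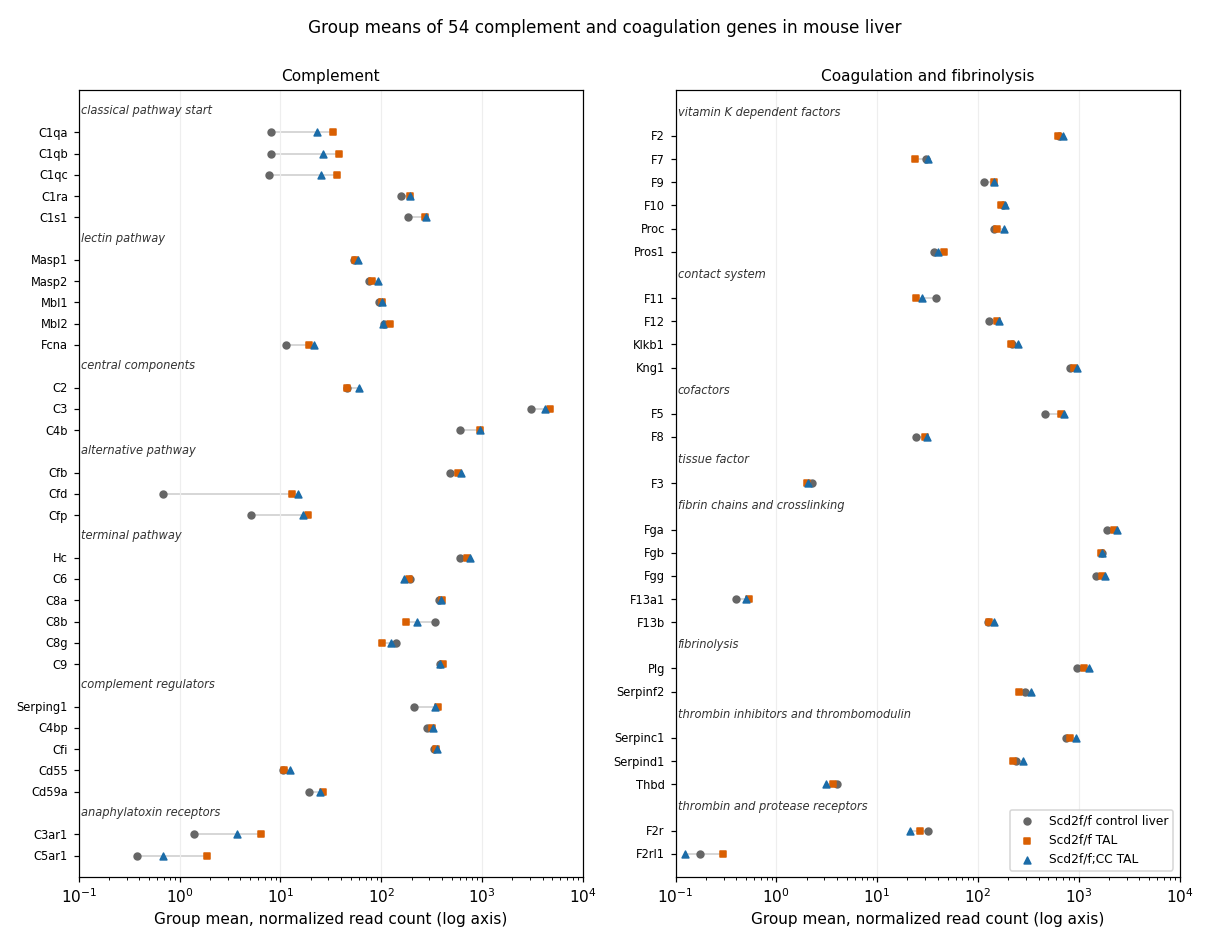
Group means of the 54 genes by role, on a log axis of normalized read counts, with 1 symbol per group (circle, Scd2f/f control liver; square, Scd2f/f TAL; triangle, Scd2f/f;CC TAL) and a grey line from the lowest to the highest mean of a gene. Most hepatocyte genes have 3 symbols close together, while the C1q chains, Cfp, Cfd, C3ar1 and C5ar1 have the control symbol well to the left.

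Members were sorted by the cells that usually make these proteins. These sources were assigned with earlier results of these data known, so differences between the sets are described and were not tested. Of the 38 made mainly by hepatocytes, 0 passed 2-fold in any of the comparisons, beside at most 6.4% of all genes in either direction. Their ratios in Scd2f/f TAL vs. control ranged from 0.518 for C8b to 1.72 for Serping1, with 27 above 1, 11 below 1 and a median log2 of 0.10. Of the 8 made mainly by macrophages or other myeloid cells, 6 passed the filter. All 6 had ratios above 1, from 1.68 for Fcna to 4.72 for C1qc, and 5 were at least 2-fold higher. These had a median log2 of 2.11. The other 8 members have endothelial, mixed or other sources, and 7 passed the filter. Cfd alone among these 7 was at least 2-fold higher, and the median log2 was 0.054. For Scd2f/f;CC TAL vs. Scd2f/f TAL, the median log2 ratio was 0.099 for hepatocyte members, -0.52 for myeloid members and 0.021 for the rest. The C1q chains, from 1 gene cluster, made up 3 of the 6 myeloid members and set that median. The other myeloid members varied, with ratios of 0.585 for C3ar1, 0.898 for Cfp and 1.14 for Fcna. Relative to the median of all genes, which no scaling alters, the hepatocyte members lay at 0.093 and the myeloid members at -0.53.

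**Figure D2:**
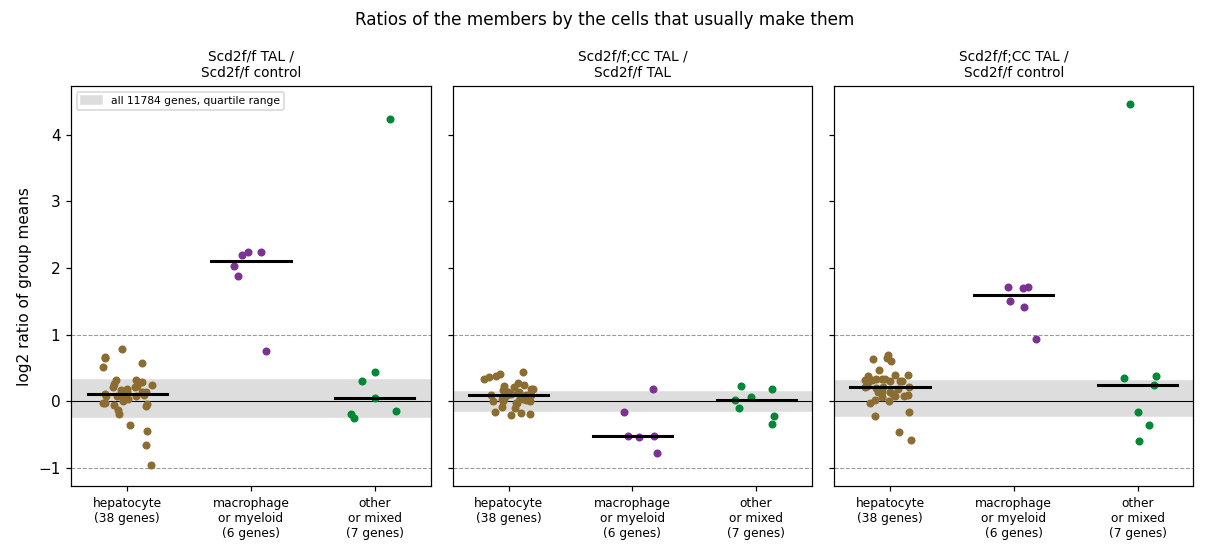
Log2 ratios of group means of the 51 members past the filter, by usual source, in the 3 comparisons. Points are genes, black bars are medians, the grey band spans the lower to the upper quartile of all 11784 genes, and dashed lines mark 2-fold. In the left and right panels 5 of 6 myeloid genes and Cfd lie above the upper dashed line, and in the middle panel no member lies outside the dashed lines.

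C1q, which binds immune complexes and dying cells, consists of 3 kinds of chain whose genes lie side by side on chromosome 4 on the minus strand. In mm10, C1qb occupies chr4:136880129-136886187, C1qc chr4:136889804-136893065 and C1qa chr4:136895917-136898803, each with 3 exons. C1qa had a mean of 8.14 for control liver, 33.2 for Scd2f/f TAL and 23.1 for Scd2f/f;CC TAL. C1qb gave 8.14, 38.3 and 26.4 in the same order. For C1qc these means were 7.77, 36.7 and 25.5. The 3 chains thus shared their order, lowest in control liver and highest in Scd2f/f TAL, with Scd2f/f;CC TAL between. Their ratios in Scd2f/f TAL vs. control were 4.08, 4.71 and 4.72 for C1qa, C1qb and C1qc. Relative to Scd2f/f TAL, Scd2f/f;CC TAL had ratios of 0.696, 0.689 and 0.695, which were between 0.618 and 0.644 under the other scalings to the protein-coding total or the hepatocyte markers. Per kilobase of the longest coding transcript, the chains stayed within 1.21-fold of each other for control liver, 1.15-fold for Scd2f/f TAL and 1.14-fold for Scd2f/f;CC TAL. The 4 other genes past the filter within 500 kb, Luzp1, Zbtb40, Cdc42 and Kdm1a, had ratios between 0.794 and 1.51 in Scd2f/f TAL vs. control, and between 0.841 and 0.983 when Scd2f/f;CC TAL was compared with Scd2f/f TAL.

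Promoters from RefSeq (GRCm38.p6) were set beside these values for 42 of the members, with 45 promoters in all. The 250 bases before the RefSeq start were searched on both strands for AGGAAGT, a core bound by PU.1, a transcription factor of myeloid cells. That start can differ from the gene span given here, and part of the C1qc stretch lies within the C1qc span above. It was found in 5 of 8 promoters of myeloid members (62.5%), 1 of 31 of hepatocyte members (3.23%) and 7.69% of all 32851 promoters. C1qb and C1qc each held it on the opposite strand, where it reads ACTTCCT, 53 and 195 bases before the start. The myeloid promoters of Fcna, F13a1 and C5ar1 held it too, whereas those of Cfp and C3ar1 did not, and C1qa had no promoter entry. Of the myeloid members that were at least 2-fold higher in Scd2f/f TAL than in control, only C1qb and C1qc thus held it. The sequences of C1qb (chr4:136886201-136886450, minus strand) and C1qc (chr4:136892915-136893164, minus strand) are shown with this match in capitals. Those of Cfp (chrX:20931556-20931805, minus strand), where capitals mark the HNF1 core GTTAAT, and Cfd (chr10:79890603-79890852, plus strand), which held none of the 5 motifs searched here and in the fibrinogen promoters below, are shown as the alternative pathway members that were at least 2-fold higher in Scd2f/f TAL than in control. A match describes letters and not a bound site.
C1qb: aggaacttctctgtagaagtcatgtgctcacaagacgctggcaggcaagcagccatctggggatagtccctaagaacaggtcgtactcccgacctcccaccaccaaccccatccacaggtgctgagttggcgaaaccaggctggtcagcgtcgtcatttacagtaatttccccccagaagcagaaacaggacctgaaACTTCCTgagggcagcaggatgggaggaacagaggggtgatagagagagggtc
C1qc: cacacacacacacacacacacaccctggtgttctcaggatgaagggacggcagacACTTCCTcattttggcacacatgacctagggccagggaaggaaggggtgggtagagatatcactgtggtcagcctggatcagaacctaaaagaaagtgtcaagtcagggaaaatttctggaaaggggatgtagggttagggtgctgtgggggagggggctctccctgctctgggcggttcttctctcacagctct
Cfp: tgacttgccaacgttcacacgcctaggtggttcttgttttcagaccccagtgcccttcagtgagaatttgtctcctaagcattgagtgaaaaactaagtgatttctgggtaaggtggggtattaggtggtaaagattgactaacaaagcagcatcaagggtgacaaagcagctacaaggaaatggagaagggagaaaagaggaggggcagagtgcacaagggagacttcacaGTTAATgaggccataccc
Cfd: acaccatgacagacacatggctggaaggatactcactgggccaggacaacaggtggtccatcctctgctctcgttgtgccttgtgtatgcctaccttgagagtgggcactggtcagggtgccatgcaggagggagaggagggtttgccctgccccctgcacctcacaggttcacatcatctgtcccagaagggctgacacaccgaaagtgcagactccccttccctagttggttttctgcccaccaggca

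C1q activates the proteases C1r and C1s, which hepatocytes make. C1ra had means of 156, 191 and 194, and C1s1 had 184, 274 and 280, in control liver, Scd2f/f TAL and Scd2f/f;CC TAL. Both were higher in Scd2f/f TAL than in control by ratios of 1.22 and 1.49, well under those of the C1q chains, and had ratios of 1.02 to Scd2f/f TAL in Scd2f/f;CC TAL. Each has a near-identical copy, C1rb and C1s2, which were not analysed here, so reads may have been split between copies. Serping1 encodes the C1 inhibitor that inactivates both proteases. Its means were 212 for control liver, 365 for Scd2f/f TAL and 344 for Scd2f/f;CC TAL, and its ratio of 1.72 in Scd2f/f TAL vs. control was the highest of all 38 hepatocyte members.

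Of the 5 lectin pathway genes, 0 passed 2-fold in any comparison, beside at most 6.4% of all genes in either direction. Fcna, the ficolin made by liver macrophages, had means of 11.4, 19.2 and 21.8 and differed most among them. Its ratio was 1.68 in Scd2f/f TAL vs. control and 1.14 in Scd2f/f;CC TAL vs. Scd2f/f TAL, so it was not lower in Scd2f/f;CC TAL as the C1q chains were. On scaling to the protein-coding total the latter ratio was 1.05. The mannose-binding lectin gene Mbl1 had means of 94.8, 102 and 102, and Mbl2 had 107, 121 and 105. Masp1, which encodes a lectin-associated protease, had 53.6, 55 and 58.9. Masp2, which encodes the protease that cleaves C4 and C2, had 75.6, 80.3 and 93.8. These 4 hepatocyte genes had ratios from 1.03 to 1.13 in Scd2f/f TAL vs. control.

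The pathways meet at C4, C2 and C3. C3, the central opsonin precursor, had means of 3050 for control liver, 4770 for Scd2f/f TAL and 4220 for Scd2f/f;CC TAL. Per kilobase of its longest coding transcript these were 594, 929 and 822, the third highest level of the members in control liver. C4b had means of 604, 960 and 946. Both were higher in Scd2f/f TAL than in control, by 1.56-fold and 1.59-fold, and lay at ratios of 0.885 and 0.985 in Scd2f/f;CC TAL vs. Scd2f/f TAL. C4a, the near-identical copy of C4b that is no member, had means of 22.7, 8.37 and 10.1, and the division of reads between these copies is uncertain. C2, which encodes the partner of C4 in the C3 convertase, had means of 45.5, 45.9 and 59.6 and was thus 1.30-fold higher in Scd2f/f;CC TAL than in Scd2f/f TAL. This ratio was 1.20 with scaling to the protein-coding total and 1.16 with centring on hepatocyte markers. Exons of C2 and of the factor B gene Cfb overlap the gene model Gm20547 on the same strand, which had means of 6.6, 8.98 and 14.6, so counts of these genes may not be fully separate.

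The alternative pathway held the member furthest from its control level. Cfd encodes factor D, the protease that cleaves factor B and that is also known as adipsin from fat cells. At chr10:79890853-79892655 on the plus strand, it had a mean of 0.688 for control liver, 12.9 for Scd2f/f TAL and 15.1 for Scd2f/f;CC TAL. The ratio of Scd2f/f TAL to control was 18.8, which ranked 7 among 11784 genes, and that of Scd2f/f;CC TAL to control was 21.9. Cfd passed the filter only through the treated groups. Its control mean was low, and a pseudocount of 1 reduced its log2 ratio in Scd2f/f TAL vs. control from 4.23 to 3.04. Fabp4, a gene abundant in fat cells and chosen after its values were seen, had means of 5.24, 5.49 and 3.76. The part of fat cells in the Cfd means was not tested. Cfp encodes properdin, which stabilizes the alternative pathway convertase. Its means were 5.06, 18.6 and 16.7, with ratios of 3.68 in Scd2f/f TAL vs. control and 0.898 in Scd2f/f;CC TAL vs. Scd2f/f TAL. Factor B, the protease of the alternative convertase, showed a smaller difference, as Cfb had means of 483, 572 and 626.

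Terminal pathway genes encode the pore-forming membrane attack complex. Hc, which encodes C5, had means of 606, 707 and 755. C6 had 194, 187 and 167, and C9 had 384, 412 and 384. The C8 genes had unequal ratios, although their products form a single complex. C8a, at chr4:104815679-104876398, had means of 374 for control liver, 401 for Scd2f/f TAL and 393 for Scd2f/f;CC TAL. C8b, at chr4:104766317-104804548, had 342, 177 and 229. Its ratio of 0.518 in Scd2f/f TAL vs. control was the lowest of the 51 members. C8g, on chromosome 2, had means of 139, 102 and 124, with a ratio of 0.734 in the same comparison. Ratios of C8b and C8g in Scd2f/f;CC TAL vs. Scd2f/f TAL were 1.29 and 1.22, and scaling to the protein-coding total left both above 1. C8a and C8b lie 11130 bases apart and differed by 1.05 log2 units in their ratios of Scd2f/f TAL to control. Per kilobase, the highest C8 chain exceeded the lowest by 1.48-fold for control liver, 1.4-fold for Scd2f/f TAL and 1.06-fold for Scd2f/f;CC TAL. The longest annotated coding transcripts used for this had 3617 bases for C8a, 2239 for C8b and 1150 for C8g. Other transcripts could change how close the chains lie.

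The promoters of this neighbouring pair are shown because the genes differed in their ratios. Both held the HNF1 core GTTAAT, an element of hepatocyte promoters, in capitals, 107 bases before the start of C8a (chr4:104876399-104876648, minus strand) and, as ATTAAC on the opposite strand, 206 bases before that of C8b (chr4:104766067-104766316, plus strand).
C8a: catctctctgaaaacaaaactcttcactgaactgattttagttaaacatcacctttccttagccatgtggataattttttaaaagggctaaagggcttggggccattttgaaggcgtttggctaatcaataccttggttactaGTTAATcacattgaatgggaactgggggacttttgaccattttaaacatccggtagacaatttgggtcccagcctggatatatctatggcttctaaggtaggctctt
C8b: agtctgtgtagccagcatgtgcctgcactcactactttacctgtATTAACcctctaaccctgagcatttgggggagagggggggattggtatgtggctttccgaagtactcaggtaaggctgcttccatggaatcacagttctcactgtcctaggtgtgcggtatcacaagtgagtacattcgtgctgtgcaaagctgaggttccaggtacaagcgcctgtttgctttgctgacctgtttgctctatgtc

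**Figure D3:**
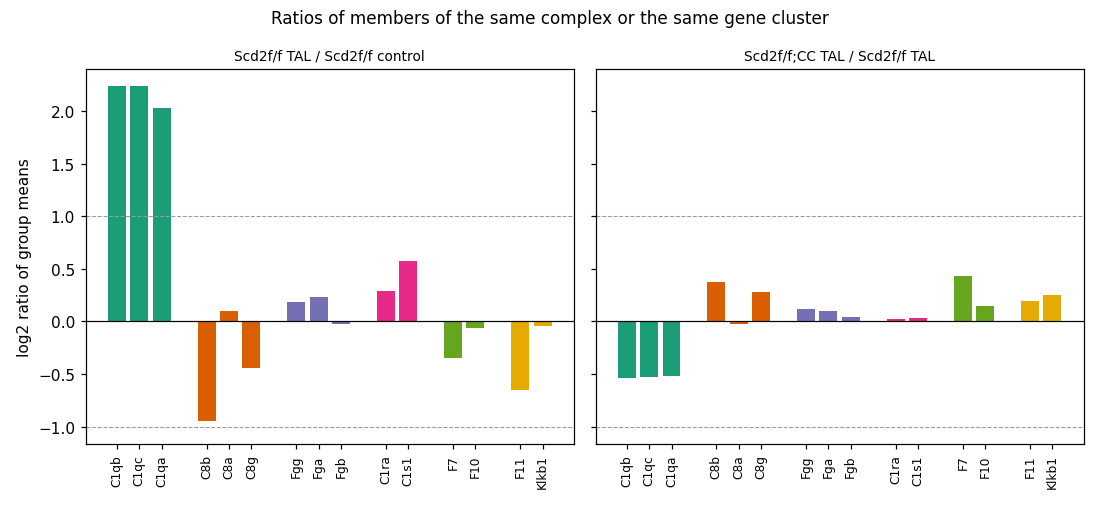
Log2 ratios of group means (bars from 0) for members that share a complex or lie next to each other, 1 color per set, in Scd2f/f TAL vs. control (left) and Scd2f/f;CC TAL vs. Scd2f/f TAL (right), with dashed lines at 2-fold. The 3 C1q bars are alike in each panel, the C8b and C8g bars point away from the nearly flat C8a bar, and the fibrinogen bars are short. The other scalings lower all bars of the right panel together, by up to 0.158.

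Complement regulators other than Serping1 had ratios between 1.04 and 1.36 in Scd2f/f TAL vs. control. C4bp, which encodes the plasma cofactor for C4b breakdown, had means of 287, 318 and 327. Cfi, which encodes the protease that inactivates C3b and C4b, had 334, 353 and 356. Other regulators sit on cell membranes. Cd55, whose product speeds the decay of convertases, had means of 10.5, 10.9 and 12.4. Cd59a, whose product blocks the membrane attack complex, had 19.3, 26.3 and 24.6, and may share reads with its copy Cd59b. Receptors for the cleavage products C3a and C5a, which attract and activate myeloid cells, followed the order of the C1q chains. C3ar1 had means of 1.39, 6.36 and 3.72, hence ratios of 4.58 in Scd2f/f TAL vs. control and 0.585 in Scd2f/f;CC TAL vs. Scd2f/f TAL, the latter being the lowest of the 51 members. C5ar1, under the filter, had 0.382, 1.86 and 0.68.

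Markers of macrophages and other myeloid cells were higher in TAL alongside these members. Of 12 macrophage markers, 10 were at least 2-fold higher in Scd2f/f TAL than in control, and their summed mean was 157 for control liver, 487 for Scd2f/f TAL and 413 for Scd2f/f;CC TAL. Of 10 markers of recruited myeloid cells, 7 passed the filter and all 7 were at least 2-fold higher in Scd2f/f TAL, with summed means over the 10 of 9.81, 41.6 and 18.1. Beside these counts, 6.4% of all genes past the filter were at least 2-fold higher. Apart from Cd9, the 7 had control means under 1 and passed the filter only through the treated groups. The filter thus favoured ratios above 1 for these genes. Among the 10 macrophage markers the same held for Marco and Fcgr1. No marker of either list was at 0. Macrophage markers in Scd2f/f;CC TAL vs. Scd2f/f TAL had a median log2 of -0.19 and the recruited myeloid markers -0.85, which were -0.30 and -0.96 with scaling to the protein-coding total. Adgre1, which encodes F4/80, had a ratio of 0.932. The Kupffer cell markers Clec4f and Timd4 had ratios of 1.01 and 1.24, whereas Cd68 and Lyz2 had 0.638 and 0.595. Fcgr1 and Marco, at 0.694 and 0.733, were closest to the C1q chains, which lay between 0.689 and 0.696. Cd163 differed from the rest of the list, with means of 11.6, 8.44 and 12.9 and ratios of 0.728 in Scd2f/f TAL vs. control and 1.53 in Scd2f/f;CC TAL vs. Scd2f/f TAL. The part of macrophage number in the C1q means was not tested. Markers of HSC and fibroblasts were lower in Scd2f/f;CC TAL as well, with summed means of 202, 342 and 196 over 10 genes. So were cholangiocyte markers, which had summed means of 58.7, 53.1 and 19.1 over 5 genes and, for the 3 past the filter, the lowest median log2 of the lists at -1.61. C1qa, C1qb and C1qc are not in these lists.

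**Figure D4:**
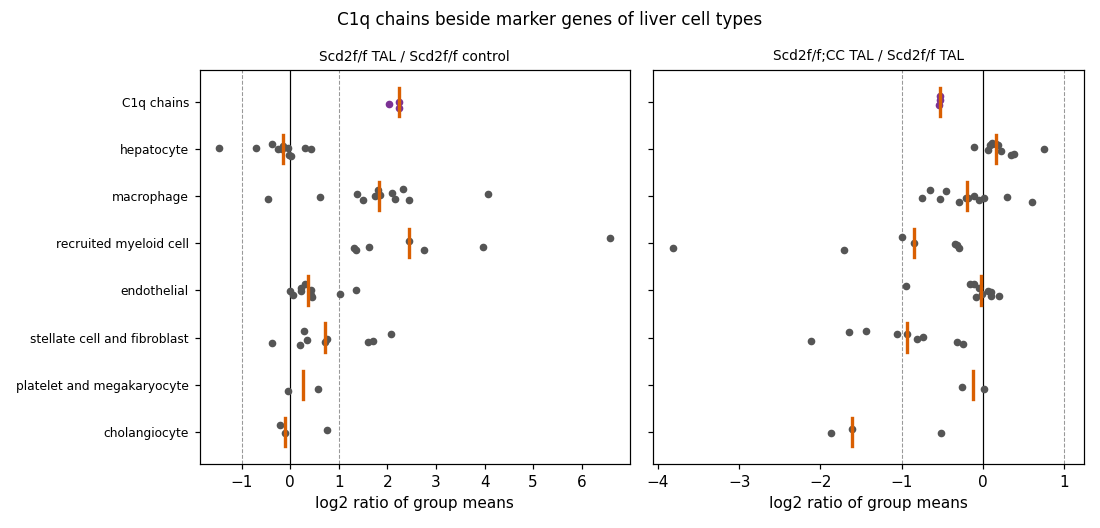
Log2 ratios of group means of the C1q chains (top row) and of marker genes past the filter for 7 liver cell types, in Scd2f/f TAL vs. control (left) and Scd2f/f;CC TAL vs. Scd2f/f TAL (right). Points are genes, orange bars are medians and dashed lines mark 2-fold. The C1q chains lie among the macrophage and recruited myeloid markers on the left, and between their medians on the right.

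Coagulation and fibrinolysis genes past the filter stayed within 2-fold. Of 25 members, 23 passed the filter, and 0 were 2-fold higher or lower in any comparison. In Scd2f/f TAL vs. control, 6 of 28 complement members were 2-fold higher. Among all genes past the filter, 6.4% were at least 2-fold higher and 2.89% lower in that comparison. The shares were 0.645% and 1.54% in Scd2f/f;CC TAL vs. Scd2f/f TAL, and 4.51% and 2.55% in Scd2f/f;CC TAL vs. control. With only 23 genes, a count of 0 lies near these shares. Ratios of the 23 in Scd2f/f TAL vs. control ranged from 0.636 to 1.43, with 12 above 1 and 11 below 1. In Scd2f/f;CC TAL vs. Scd2f/f TAL, 20 of 23 had ratios above 1, from 0.79 to 1.35 over all 23. That count was 13 with scaling to the protein-coding total and 9 with centring on hepatocyte markers, as these scalings lower the ratio of every gene. The median log2 of the 23 was 0.109 above that of all genes under each scaling, and that of the hepatocyte markers was 0.152 above it.

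**Figure D5:**
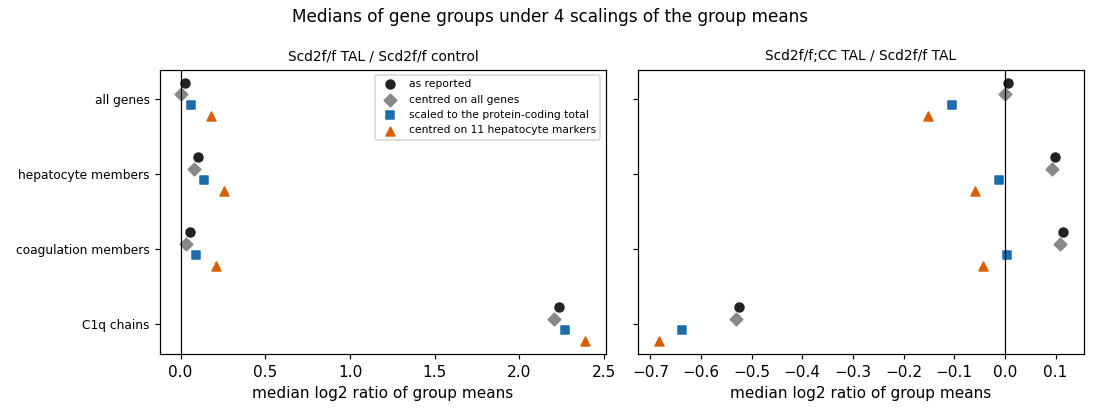
Median log2 ratios of group means for all 11784 genes, the 38 hepatocyte members, the 23 coagulation members past the filter and the 3 C1q chains under 4 scalings, in Scd2f/f TAL vs. control (left) and Scd2f/f;CC TAL vs. Scd2f/f TAL (right). Each scaling shifts all groups of a panel by the same amount, so relative to all genes the C1q median in the right panel lies at -0.531 and that of the hepatocyte members at 0.093 throughout.

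Vitamin K dependent factors are serine proteases and cofactors that need gamma-carboxylation. F2, the prothrombin gene, had means of 635, 623 and 701. F7, whose product starts clotting with tissue factor, had 30.3, 23.8 and 32.2. Its ratio of 1.35 in Scd2f/f;CC TAL vs. Scd2f/f TAL was the highest of the 51 members, and was 1.25 and 1.21 under the other scalings to the protein-coding total and the hepatocyte markers. F10, which lies 1498 bases from F7, had means of 176, 168 and 186. F9, deficient in hemophilia B, had 116, 145 and 146. Among anticoagulants of this class, Proc, encoding protein C, had 146, 155 and 180, and Pros1, encoding its cofactor protein S, had 36.5, 45.8 and 40.1.

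The contact system starts the intrinsic pathway and releases bradykinin. F12 had means of 129, 154 and 160, and Kng1, the kininogen gene, had 818, 904 and 965, with a related copy, Kng2, that may share its reads. Klkb1, encoding plasma kallikrein, had 218, 212 and 252. F11 had 38.5, 24.5 and 28, and its ratio of 0.636 in Scd2f/f TAL vs. control was the lowest among coagulation genes. F11 and Klkb1 arose from a common ancestor and lie 4657 bases apart, but differed by 0.61 log2 units in this comparison. Exons of Klkb1 overlap the gene model Gm45753 on the same strand, which had means of 1.46, 6.1 and 0.868, so their counts may not be fully separate. Among the cofactors, F5 had means of 465, 667 and 722. Its ratio of 1.43 in Scd2f/f TAL vs. control was the highest among coagulation genes past the filter. F8, made by endothelial cells and deficient in hemophilia A, had 24.1, 29.8 and 31.3. F3, encoding tissue factor, had means of 2.28, 2.01 and 2.04.

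Fibrinogen, the precursor of fibrin, is built from 3 kinds of chain whose genes differed little between groups. Fga had means of 1910, 2250 and 2410 in control liver, Scd2f/f TAL and Scd2f/f;CC TAL. Fgb had 1700, 1670 and 1720. Fgg gave 1490, 1690 and 1830. Ratios in Scd2f/f TAL vs. control were 1.18, 0.982 and 1.13 for the alpha, beta and gamma chains, so that Fgb stood slightly apart from its neighbours on chromosome 3. All 3 ratios in Scd2f/f;CC TAL vs. Scd2f/f TAL lay between 1.03 and 1.08, but between 0.923 and 0.97 with centring on hepatocyte markers. Per kilobase of the longest coding transcript, Fgg had the highest level of all members in each group, with 856, 971 and 1051. By that measure Fgb had 446, 438 and 451, where its longest annotated transcript of 3810 bases may understate the level. F13b, encoding the carrier subunit of the fibrin-crosslinking factor XIII, had means of 125, 130 and 143. Its catalytic subunit, from F13a1 of macrophages and platelets, was under the filter at 0.395, 0.535 and 0.504.

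Promoters of 2 fibrinogen chains are shown because they carried matches to 2 hepatocyte elements each. For C/EBP the letters were TTGCNNAA and for HNF1 they were GTTAAT, on either strand. Fga (chr3:83025903-83026152, plus strand) had them 135 and 43 bases before the RefSeq start, and Fgb (chr3:83049864-83050113, minus strand) had them 80 and 29 bases before it, with no overlap between matches. By the deposited coordinates Fga starts at 83026076, so its HNF1 match lies within that span. The promoter of Fgg held neither. Across 31 promoters of hepatocyte members, 25.8% held the C/EBP letters and 25.8% the HNF1 letters, beside 9.56% and 6.43% of all 32851 promoters. The HNF4 letters CAAAGTCCA were found in 0 of these 31 and in 0.384% of all promoters, and TATAAA in 6.45% and 12.4%.
Fga: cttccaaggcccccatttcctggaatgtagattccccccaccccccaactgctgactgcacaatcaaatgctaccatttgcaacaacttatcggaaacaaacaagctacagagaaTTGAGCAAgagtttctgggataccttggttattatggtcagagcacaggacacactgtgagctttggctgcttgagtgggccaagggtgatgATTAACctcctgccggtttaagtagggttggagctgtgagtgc
Fgb: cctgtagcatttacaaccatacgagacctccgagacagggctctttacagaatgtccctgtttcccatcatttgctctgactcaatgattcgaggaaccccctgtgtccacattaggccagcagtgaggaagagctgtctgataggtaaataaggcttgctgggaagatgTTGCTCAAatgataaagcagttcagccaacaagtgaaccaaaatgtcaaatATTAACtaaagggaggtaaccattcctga

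Plg, the plasminogen gene, had means of 962, 1120 and 1270. Serpinf2, which encodes the plasmin inhibitor, had 292, 256 and 339, with ratios of 0.877 in Scd2f/f TAL vs. control and 1.32 in Scd2f/f;CC TAL vs. Scd2f/f TAL. Of the thrombin inhibitors, Serpinc1, encoding antithrombin, had means of 747, 823 and 940, and Serpind1, encoding heparin cofactor II, had 241, 221 and 279. Thbd, encoding the endothelial thrombin receptor thrombomodulin that activates protein C, had 4.03, 3.66 and 3.14. F2r, encoding the thrombin receptor PAR1, had 31.8 for control liver, 26.7 for Scd2f/f TAL and 21.1 for Scd2f/f;CC TAL. The lowest mean was that of Scd2f/f;CC TAL, and its ratio of 0.79 to Scd2f/f TAL was the lowest among coagulation genes past the filter. F2rl1, encoding the protease receptor PAR2, was under the filter with 0.174, 0.297 and 0.124.

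The remaining genes of these pathways were taken as a list of 58, of which 52 were found and 43 passed the filter. In Scd2f/f TAL vs. control, 7 of 43 were at least 2-fold higher and 2 were at least 2-fold lower, beside 6.4% and 2.89% of all genes. Those higher included the genes of complement receptors 3 and 4, which take up C3-coated particles. Itgb2, their shared beta chain, had means of 2.36, 14.1 and 9.29. Itgam had 0.621, 1.59 and 1.26, and Itgax had 0.235, 3.66 and 1.12. Vsig4, the complement receptor of resident liver macrophages, had 4.9, 17.2 and 14.1. Itgam, Itgax and Vsig4 are also among the myeloid markers above. Among genes of fibrinolysis, Plau, encoding urokinase, had 0.626, 2.05 and 1.2. Itgam, Itgax and Plau passed the filter only through the treated groups, as their control means were under 1. Anxa2, encoding a plasminogen-binding surface protein, had 5.48, 16.8 and 8.45. C4a and the complement inhibitor gene Susd4 were lower, the latter with 19.2, 9.39 and 13.4. In Scd2f/f;CC TAL vs. Scd2f/f TAL, 0 of 43 were at least 2-fold higher and only Itgax, at a ratio of 0.306, was at least 2-fold lower. The shares of all genes were 0.645% and 1.54%. Anxa2 lay just inside this limit at 0.503.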

How the data were processed

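Liver RNA of 9 mice (3 per group) was sequenced from polyadenylated RNA, and per the labels the submitters' processing used STAR 2.6.1, Partek 6 and mm10. The authors quantified reads by Gencode M3 gene with the E/M method, and applied upper quartile normalization. The deposited signal of each group averages its normalized counts as a least-squares mean, given for 16755 genes to 3 significant digits. The table has 18 columns, and 8 hold the authors' comparisons (p-values, FDR, ratios, fold changes) and were not used, nor was a repeated column of Scd2f/f TAL means. Whether counting used strand is not given in the sources used here, so genes overlapping on opposite strands may share reads. Among the members these are Masp2, C2, Hc, F5, Fgg and Serpinc1, whose partners are in the table, and C1s1, Fcna, Cd55 and F13a1, whose partners are not in the rows used. The group means were mapped to groups by column names.

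Ratios of group means were computed with no pseudocount (Python 3.11.15, NumPy 2.4.6, pandas 2.3.3, Matplotlib 3.10.9), for 11784 genes with a mean over groups of at least 1. The upper quartiles of the group means were 15.5, 15.5 and 15.4, and depth per sample is unknown. The planned limma fit needs values of single samples and could not be run. Counts at 2-fold and medians were set beside those of all genes. Only the arithmetic of ratios and the motif search were checked on simulated data. Gene lists, markers and usual cell sources were chosen with earlier results of these data known. Genes named are all members, and genes of the wider pathway list past 2-fold, with exceptions as stated, and 1 gene of that list is not reported here. The deposited end coordinate was 1 base past the annotated end and was corrected, after which 47 of 54 members matched GENCODE M21 exactly. Promoters came from RefSeq (GRCm38.p6). C1qa, C2, C4b, Cfb, Cfi, Masp1, Serping1, Plg, Kng1, Proc, Thbd and F2rl1 had no entry. Protein features were not analysed here. Alternatives were pseudocounts, filters, fold limits and scalings.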

Additional observations from a re-analysis of the deposited data

How the results depend on the processing

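With values of single mice not analysed here, spread between mice, leaving out each replicate and any test could not be run, and the results are ratios without error. No paired analysis was possible because only group means were used, which carry no replicate number. At a fold limit of 1.5, 10 members were higher and 2 lower in Scd2f/f TAL vs. control (12.8% and 8.6% of all genes), 1 was lower in Scd2f/f;CC TAL vs. Scd2f/f TAL (4.9%), and against control Scd2f/f;CC TAL had 11 higher and 1 lower (10.9% and 7.71%). Without the filter on the mean, 2 members (C5ar1 and F2rl1) were at least 2-fold lower in Scd2f/f;CC TAL vs. Scd2f/f TAL, beside 4.07% of all 16755 genes. Centring on hepatocyte markers gave member medians of 0.299 in Scd2f/f TAL vs. control and -0.087 in Scd2f/f;CC TAL vs. Scd2f/f TAL. Scaling to the protein-coding total, chosen after seeing the data, gave -0.040 in the latter. Both shift every gene alike, so the median of all genes was -0.152 and -0.105 there. Under that scaling 6 members remained at least 2-fold higher in Scd2f/f TAL vs. control. Of the 162 member ratios, 8 moved by over 0.1 log2 units with a pseudocount of 0.1, 21 with a pseudocount of 1, 108 with centring on hepatocyte markers, 54 with scaling to the protein-coding total and 0 with centring on all genes.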
